A study of Gallus gallus with 4 samples.

Results

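HIF1α-DNA binding complexes were mapped by CUT&RUN, in which an antibody tethers a nuclease to a bound protein in permeabilized cells and the small DNA fragments it releases are sequenced. All libraries came from primary chick lens epithelial cells of White Leghorn embryos at embryonic day 10, exposed for 4 h to DMOG (dimethyloxalylglycine, 1 mM), which blocks prolyl hydroxylases and so stabilizes HIF1α. There were 2 libraries with the HIF1α antibody (ab2185) and 2 with control immunoglobulin (IgG), prepared from aliquots of the same cell pools. Both antibodies were used on DMOG-treated cells alone, and the cells were cultured rather than taken as whole lens. Each group of libraries was pooled before peaks were called, so each peak has a single value with no replicate error. The complexes described here are the peaks that lie more than 100 kb from the nearest annotated transcription start site (TSS) on chromosomes other than Z and W. Positions are those of the galGal6 genome. They were chosen by distance alone and numbered 1383 of 8375 peaks in the list, or 17.0% of the 8133 peaks outside Z and W (Wilson 95% confidence interval 16.2 to 17.8). The other 6750 of these, referred to as autosomal peaks within 100 kb, served for comparison.

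HIF1α is the oxygen-regulated subunit of a heterodimeric transcription factor. Its hydroxylation by prolyl hydroxylases marks it for degradation in the presence of oxygen, and its stabilization allows it to bind hypoxia response elements in DNA. Known response elements are found in promoters and also in enhancers, which can act on a gene over long distances, often across large regions that surround developmental genes. The lens is avascular and low in oxygen.

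Peaks beyond 100 kb had the same median height and enrichment as the other peaks. The pileup, a whole number of HIF1α fragments at the summit, had a median of 9 both beyond 100 kb and in autosomal peaks within 100 kb (95% confidence interval of the median 9 to 9 in each). Fold enrichment over IgG also had the same median, 3.92 (95% confidence interval 3.92 to 4.02 beyond 100 kb and 3.92 to 3.96 within). The median length was 139 bp beyond 100 kb (95% confidence interval 136 to 142) and 137 bp within (136 to 138). A −log10 q of at least 3 was reached by 370 peaks beyond 100 kb (26.8%, Wilson 95% confidence interval 24.5 to 29.1) and by 1783 within (26.4%, 25.4 to 27.5), against 26.5% of all autosomal peaks. The odds ratio was 1.02 (95% confidence interval 0.893 to 1.16, adjusted p = 0.789, two-sided Fisher's exact test). Pileups of 7 to 9 fragments, the lowest in the list, made up 57.8% of the peaks beyond 100 kb and 59.1% of those within (odds ratio 0.950, 95% confidence interval 0.845 to 1.07, adjusted p = 0.501, Fisher's exact test). A length of at least 200 bp was found in 16.5% beyond and 15.3% within (odds ratio 1.09, 95% confidence interval 0.933 to 1.28, adjusted p = 0.452, Fisher's exact test). None of these 3 differences passed the threshold. Each peak counted as 1 independent observation in these tests, and replicates did not enter them.

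The share of peaks with a high IgG background did differ. The background of a peak, in fragments, follows from the pileup and the fold enrichment. It is the value that the enrichment was taken against, and not a count of IgG fragments at the peak. The lowest value in the list was 1.30 fragments. To rounding, 626 peaks beyond 100 kb (45.3%) and 3397 within (50.3%) had this lowest value. A background over 3 times this value was called high IgG background. High IgG background was present at 172 peaks beyond 100 kb (12.4%, 95% confidence interval 10.8 to 14.3) and at 467 within (6.92%, 6.34 to 7.55). The odds ratio was 1.91 (95% confidence interval 1.59 to 2.30, adjusted p = 2.40e-10, Fisher's exact test over 5 shares), and 2.23 when pooled within chromosomes (Mantel-Haenszel estimate, adjusted p = 1.99e-12). Among peaks at 10 to 100 kb alone the share was 7.93%, and against these the odds ratio was 1.65 (adjusted p = 4.07e-06, Fisher's exact test). Each peak counted as 1 independent observation here, but 110 of the 172 lay in 7 stretches without an annotated TSS, described below. These p-values do not allow for peaks that lie together. With 1 peak per stretch the odds ratio was 1.78 (adjusted p = 0.0132, Fisher's exact test). The peak kept was the one at the lowest coordinate, chosen separately beyond and within 100 kb. A stretch with peaks of both kinds thus entered both sides, which are not fully independent. Without chromosome 27, and with every peak counted, the odds ratio was 1.41 (9.16% beyond against 6.69% within, adjusted p = 0.00958, Fisher's exact test). On chromosomes 1 to 5 alone the difference did not pass the threshold (6.45% beyond against 4.80% within, odds ratio 1.37, adjusted p = 0.211, Fisher's exact test), and with a fold enrichment of at least 3 it did not either (odds ratio 1.75, adjusted p = 0.0517, Fisher's exact test). On chromosomes 6 to 10 alone the shares were 10.5% beyond and 2.66% within (odds ratio 4.31, adjusted p = 7.08e-05, Fisher's exact test), but the difference did not pass without chromosome 8 (odds ratio 2.76, adjusted p = 0.111, Fisher's exact test) or without chromosome 10 (odds ratio 2.38, adjusted p = 0.0888, Fisher's exact test). Peaks beyond 100 kb with high IgG background had a median pileup of 64 fragments over a median background of 31.5 and a median fold enrichment of 1.96. The other 1211 peaks beyond 100 kb had a median pileup of 9, a median fold enrichment of 4.14 and a highest pileup of 44. All 50 peaks beyond 100 kb with a pileup of 100 or more had high IgG background, as did 144 of the 150 within. The background was recovered from pileup and fold enrichment, and equal values occurred at different pileups, such as 2.12 fragments at pileups of 10, 15 and 20. Peak calling asks for a higher pileup over a higher background, so pileup and background are not independent among the listed peaks.

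**Figure D1:**
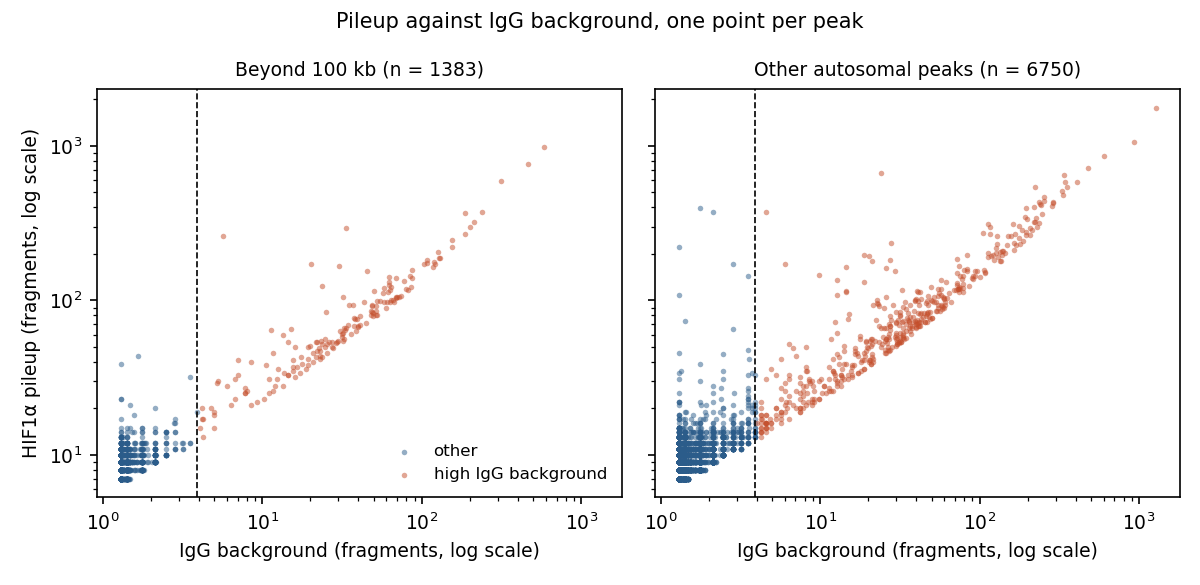
HIF1α pileup in fragments (vertical, log scale) against the IgG background in fragments computed from pileup and fold enrichment (horizontal, log scale). The 1383 peaks beyond 100 kb are on the left and the 6750 autosomal peaks within 100 kb on the right, with 1 point per peak. The dashed line marks the limit for high IgG background (3.89 fragments). To the right of it pileup and background rise together in both panels. This follows in part from the peak calling, which asks for a higher pileup over a higher background. Beyond 100 kb no peak to the left of the line exceeds 44 fragments.

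The distance of these peaks to the nearest TSS had a median of 164 kb (95% confidence interval 159 to 168) and ranged from 100 to 805 kb. A total of 570 peaks (41.2%) were at 100 to 150 kb, 346 (25.0%) at 150 to 200 kb, 271 (19.6%) at 200 to 300 kb, 129 (9.33%) at 300 to 500 kb and 67 (4.84%) at over 500 kb. In each of these ranges up to 500 kb the median pileup was 9. High IgG background made up 28 of the 67 farthest peaks (41.8%), compared with 6.64% to 14.0% in the nearer ranges. Of these 28, 24 were on chromosome 27, and without that chromosome the share was 4 of 43 (9.30%), compared with 4.17% to 11.9% in the nearer ranges. Nearest to the limit of 100 kb, and beyond it, were a peak 100049 bp from KCNK9, a potassium channel gene, (pileup 9, fold enrichment 4.08) and a peak 100095 bp from CACNA1C (pileup 8, fold enrichment 3.25). Nearest to it on the other side were a peak 99992 bp from CTNNA2 (pileup 10, fold enrichment 4.79) and a peak 99908 bp from ENSGALG00000027894 (pileup 9, fold enrichment 4.35).

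**Figure D2:**
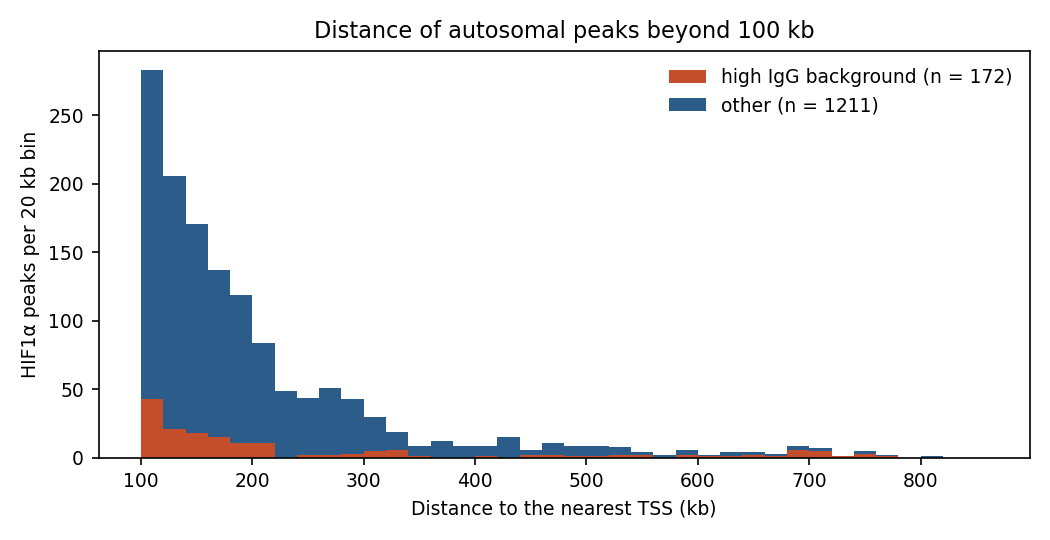
Number of peaks beyond 100 kb (vertical) by distance to the nearest TSS in kb (horizontal), with high IgG background in orange and the other peaks in blue stacked above. Most peaks lie at the shorter distances, and 24 of the 28 peaks of high IgG background over 500 kb are on chromosome 27.

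Because no TSS lies closer to a peak than the deposited distance, each peak defines a stretch of chromosome free of annotated TSSs, and overlapping stretches were joined. The 1383 peaks fell into 561 such stretches, of which 258 held a single peak, 123 held 2, and 65 held 5 or more and together 497 peaks. The stretches had a median length of at least 351 kb, and 19 exceeded 1 Mb. Peaks that shared a TSS, or positions that other peaks left free, gave the side of the nearest TSS for 1330 peaks (96.2%). It was at lower coordinates for 645 and at higher coordinates for 685. The genes at both ends were identified for 332 stretches. Of the 146 pairs of named flanking genes found on one chromosome of the NCBI RefSeq table for GRCg7b, 101 (69.2%) had no other protein-coding gene between them there and 38 had 1.

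A stretch free of TSSs is not necessarily a gene desert. In 3 stretches with 6 peaks beyond 100 kb, both ends were TSSs of the same gene. Among these were BEND5 with 2 such peaks and the joint entry of FBRSL1 and ENSGALG00000054877 with 1. Exons and introns of galGal6 were not analysed here, so how many of the other peaks lie inside long genes is not known, and the sequences of the peaks are not given.

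In each of the 14 stretches with 9 or more peaks beyond 100 kb, either all of these peaks or at most 1 had high IgG background. Smaller stretches could be mixed, such as that next to ENSGALG00000047224 on chromosome 12, with 4 of 6. The fullest was on chromosome 27 between ENSGALG00000047446 and ENSGALG00000048324, with 49 peaks beyond 100 kb in a TSS-free stretch of 1564 kb. All 49 had high IgG background, and their pileups ranged from 21 to 368 with a median fold enrichment of 1.92. Stretches with at least 5 peaks of high IgG background numbered 7. They held 111 of the peaks beyond 100 kb and 110 (64.0%) of the 172 with high IgG background. The other 1272 peaks beyond 100 kb had high IgG background in 4.87% of cases, a count given without a test because these stretches were set apart by that measure. A total of 504 of the 561 stretches had no such peak.

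Besides chromosome 27 these 7 stretches were next to PDXDC1 on chromosome 14 (15 peaks, median pileup 61), next to MGAT1 on chromosome 1 (14 peaks, median pileup 67), next to ENSGALG00000050708 on chromosome 33 (13 peaks, median pileup 171), next to IQGAP1 on chromosome 10 (8 peaks, median pileup 86), next to ENSGALG00000049437 on chromosome 8 (6 peaks, median pileup 91.5) and next to ENSGALG00000055127 on chromosome 31 (6 peaks, 5 of them with high IgG background, median pileup 98). MGAT1 encodes the first glycosyltransferase of complex N-glycan synthesis and IQGAP1 a scaffold of the actin cytoskeleton. Within 100 kb, MGAT1 was nearest to another 14 peaks, PDXDC1 to 5, ENSGALG00000050708 to 1 and IQGAP1 to 0. In 4 of the 7 the stretch ran to the first base of the chromosome or to its last listed peak. Peaks in these stretches followed each other closely, with a median gap of 4312 bp between neighbours beyond 100 kb, compared with 48847 bp in the other stretches. The 7 were set apart by holding at least 5 such peaks, whereas the others include stretches with fewer peaks. The choice thus favours short gaps in the 7, and the difference was not tested. The 8 peaks of IQGAP1 lay within 9.60 kb, at 108 to 117 kb from the TSS, with pileups of 52 to 114 and fold enrichments of 1.58 to 2.49. The densest window of 100 kb, on chromosome 27, held 18 peaks beyond 100 kb in 81.3 kb.

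**Figure D3:**
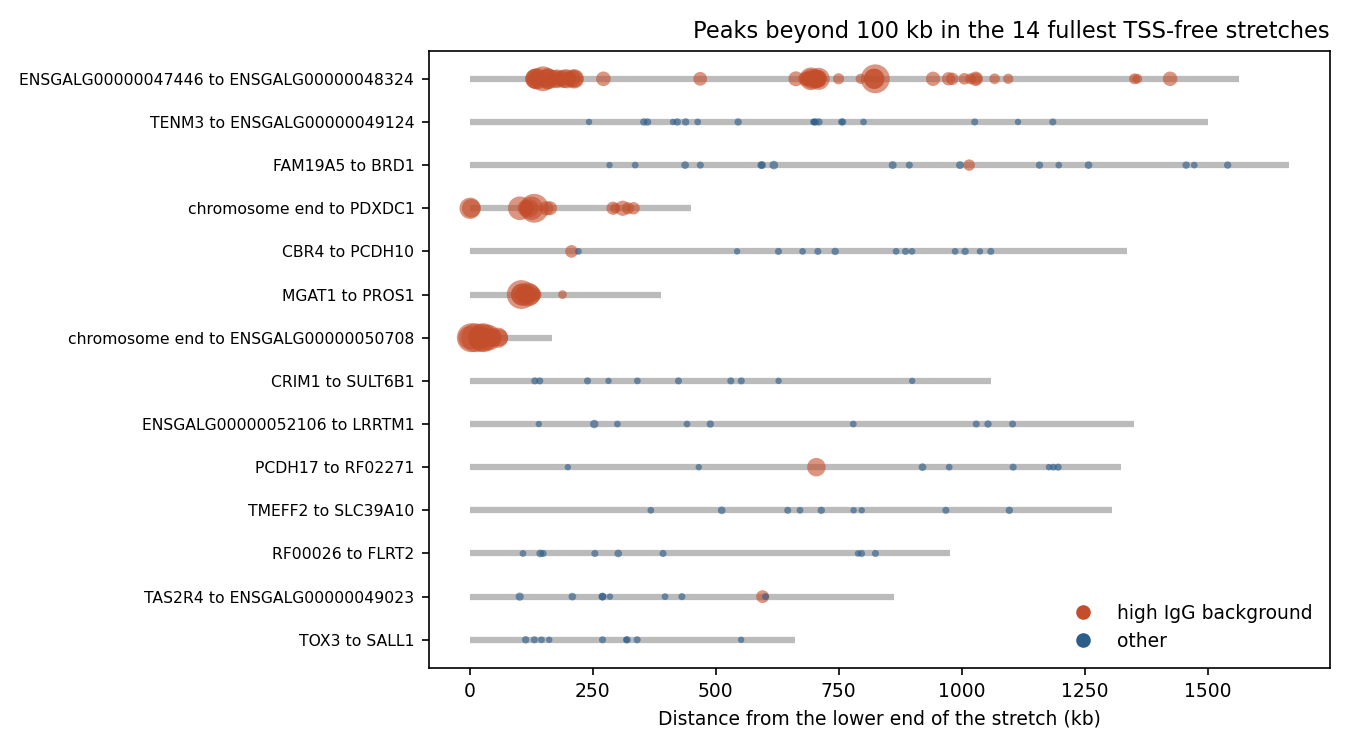
Peaks beyond 100 kb in the 14 TSS-free stretches with 9 or more of them. Each grey bar is a stretch, labelled with the genes at its lower and higher ends and drawn to scale in kb from its lower end (horizontal), and each point is a peak whose size grows with its pileup. Orange points, with high IgG background, fill the stretches beside ENSGALG00000047446, PDXDC1, MGAT1 and ENSGALG00000050708, whereas small blue points are spread along the other stretches.

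Stretches with few or no peaks of high IgG background mostly held peaks of low pileup. Between TENM3 and ENSGALG00000049124 on chromosome 4, a stretch of 1500 kb held 18 peaks beyond 100 kb. None of the 18 had high IgG background, set beside 12.4% of all peaks beyond 100 kb, which was not tested. TENM3 encodes a teneurin, a transmembrane adhesion protein that directs neuronal wiring in mouse. It was the nearest gene of 12 of the 18 peaks, at 242 to 710 kb, all on the same side of its TSS. Their pileups had a lowest value of 7, a median of 10 and a highest of 10, and their fold enrichments ranged from 3.37 to 4.79. TENM3 had no listed peak within 100 kb. In this stretch 6 peaks lay within 59.7 kb, the most in any window of 100 kb among peaks without high IgG background, a number also reached beside KCNQ1 and SLC22A18 on chromosome 5. In the stretch of 1337 kb between CBR4 and PCDH10, also on chromosome 4, PCDH10 was nearest to 10 peaks at 278 to 660 kb. This gene encodes a protocadherin, a calcium-dependent adhesion protein. Its peaks had pileups of 7 to 10 with a median close to that of all peaks, and none lay within 100 kb of the TSS. None of the 10 reached a −log10 q of 3, set beside 26.5% of all autosomal peaks, a count too small to read a difference from.

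The longest stretch, 1665 kb between FAM19A5 and BRD1 on chromosome 1, held 17 peaks beyond 100 kb, 1 of which had high IgG background. BRD1, a bromodomain subunit of histone acetyltransferase complexes, was nearest to 10 of them at 124 to 805 kb, and FAM19A5, which encodes a small secreted protein, to 7 at 284 to 618 kb. The peak farthest from any TSS was here, at chr1:18175174-18175290, 805 kb from BRD1, with 12 fragments and a 2.87-fold enrichment. A second at chr1:18209025-18209193 was 771 kb away with 9 fragments and a 4.08-fold enrichment. Next in distance were 2 peaks of high IgG background on chromosome 27, at 769 kb from ENSGALG00000048324 and 750 kb from ENSGALG00000047446, and a peak 745 kb from ENSGALG00000049124 with a pileup of 9. BRD1 also had 4 peaks within 100 kb and FAM19A5 had 1.

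Other stretches had fewer peaks. TOX3, an HMG box gene, and SALL1, a zinc finger transcription factor gene, bounded 662 kb of chromosome 11 with 9 peaks beyond 100 kb, and 7 of these had TOX3 as the nearest gene at 113 to 320 kb (pileups 7 to 10). On chromosome 3, CRIM1 and SULT6B1 bounded 1060 kb with 10 peaks, all with pileups of 7 to 9. CRIM1 encodes a membrane protein that binds bone morphogenetic proteins and is required for normal lens development in mouse. TMEFF2 and the zinc transporter gene SLC39A10 bounded 1306 kb of chromosome 7 with 9 peaks, with pileups of 7 to 11. KLHL4 on chromosome 4 had 7 peaks, 3 on one side of its TSS and 4 on the other, at 151 to 510 kb. TAS2R4, a bitter taste receptor gene on chromosome 1, had 9 at 101 to 431 kb with pileups of 7 to 20. Per chromosome the RNA family symbols RF02271 (10 peaks on chromosome 2 and 7 on chromosome 1) and RF00026 (7 on chromosome 5) were also among the 16 symbols with 7 or more peaks. RF02271 on chromosome 2 stood for 5 transcripts and RF00026 on chromosome 5 for 2, so these counts do not belong to single genes.

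**Figure D4:**
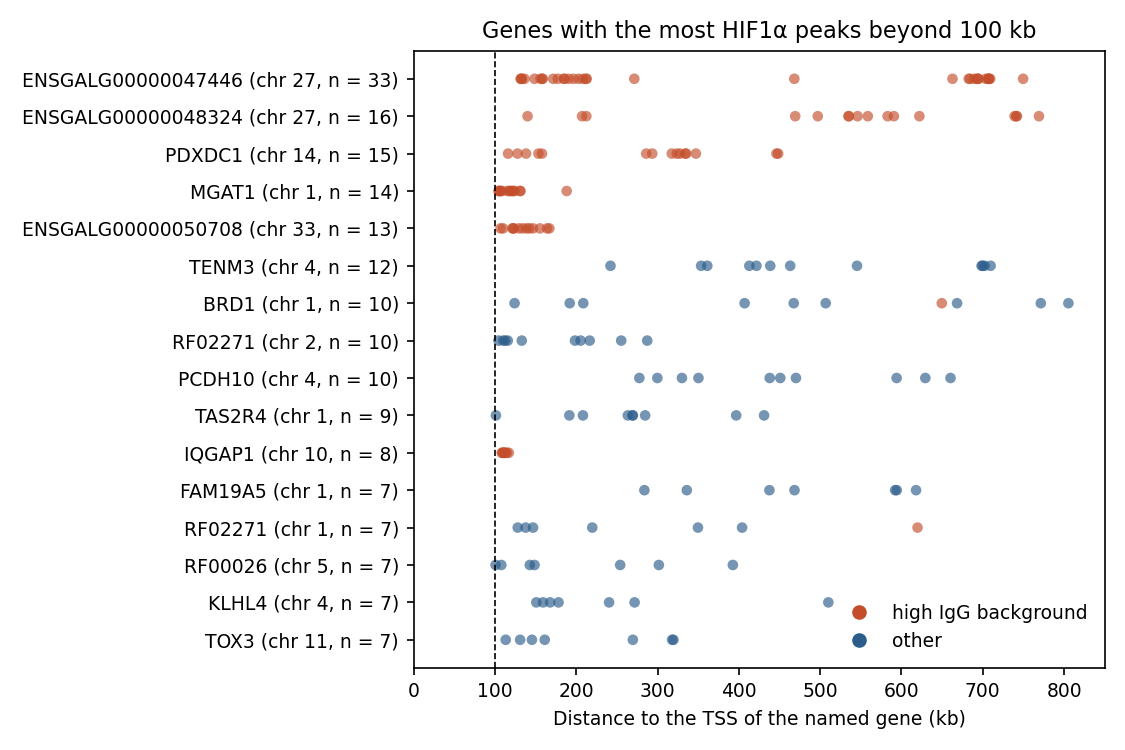
Distance in kb (horizontal) of each peak beyond 100 kb to the TSS of its nearest gene, for the 16 symbols with 7 or more such peaks on 1 chromosome (rows), with 1 point per peak. Orange points have high IgG background and make up every point of the first 5 rows and of IQGAP1. The points of TENM3 begin at 242 kb and those of PCDH10 at 278 kb, all blue.

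Many nearest symbols gathered several peaks. Counted per chromosome, 706 nearest symbols had a peak beyond 100 kb, of which 310 had 2 or more, 142 had 3 or more and 40 had 5 or more. A total of 497 of the 706 symbols also had a peak within 100 kb. With only the peaks that reached a −log10 q of 2, 56 symbols had 3 or more. A gene name, as opposed to an Ensembl identifier or an RNA family, was the nearest symbol of 943 peaks (68.2%).

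Genes nearest to these peaks were grouped by family. The peaks were chosen by distance, so genes beside long TSS-free stretches are favoured as nearest genes beyond 100 kb by that rule. The shares are therefore a description of the peaks chosen. Their intervals treat peaks as independent, although PCDH10 gave 10 of the cadherin and protocadherin peaks. TENM3 gave 12 of the synaptic and neuronal adhesion peaks. Cadherins and protocadherins were nearest to 35 peaks beyond 100 kb (2.53%, Wilson 95% confidence interval 1.83 to 3.50) and to 40 within (0.593%, 0.436 to 0.806). The 35 came from 15 symbols and the 40 from 23. After PCDH10 these were led by CDH5, the endothelial cadherin, with 3 peaks at 190 to 283 kb, PCDH9 with 2 and CDH7 with 2. Synaptic and neuronal adhesion genes were nearest to 66 peaks beyond 100 kb (4.77%, 3.77 to 6.03) from 24 symbols and 93 within (1.38%, 1.13 to 1.68) from 44. Besides TENM3 they included its relative TENM2 with 6 peaks at 120 to 576 kb, the netrin-G ligand gene LRRC4C with 5 at 119 to 476 kb and FLRT2 with 4 at 151 to 194 kb. Axon guidance genes were nearest to 28 peaks beyond (2.02%, 1.40 to 2.91) from 14 symbols and 41 within (0.607%, 0.448 to 0.823) from 22. The netrin receptor gene UNC5C had 5 peaks at 169 to 308 kb with pileups of 8 to 14, and the Slit receptor gene ROBO1 had 5 at 138 to 316 kb with pileups of 7 to 9. SEMA3A, a secreted repulsive cue, had 4 at 139 to 194 kb, and SEMA3E had 2, both with high IgG background and pileups of 94 and 104.

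Transcription factors and other regulators of development were nearest to 76 peaks beyond 100 kb (5.50%, 4.41 to 6.82) from 43 symbols and to 221 within (3.27%, 2.88 to 3.73). None of the 76 had high IgG background, set beside 12.4% of all peaks beyond 100 kb and 7.95% of those whose nearest symbol is a gene name. None of the peaks of cadherins and protocadherins had it either. A −log10 q of 3 was reached by 14 (18.4%), set beside 26.5% of all autosomal peaks. After TOX3 the leading members were SOX4 with 4 peaks at 118 to 205 kb, DACH1 with 4 at 123 to 174 kb and EBF1 with 3 at 178 to 271 kb. Ion channel and transmitter receptor genes were nearest to 51 peaks beyond (3.69%, 2.82 to 4.82) and 145 within (2.15%, 1.83 to 2.52). KCNQ1, a voltage-gated potassium channel gene, had 5 at 130 to 155 kb. The L-type calcium channel gene CACNA1C and the potassium channel gene KCND2 had 3 each. Peaks in all these families shared a median pileup of 9. The shares count peaks and were not tested.

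Growth factors and their receptors were nearest to 16 peaks beyond 100 kb (1.16%, 0.713 to 1.87) and 109 within (1.61%, 1.34 to 1.94), with overlapping intervals and no test. TGFBR2, ERBB4, FGF9 and the Patched-related PTCHD1 had 2 peaks each. Of the 16, 7 reached a −log10 q of 3, set beside 26.5% of all autosomal peaks. This was not tested, and the count is too small to read a difference from. The share was 20% for cadherins and protocadherins, 22.7% for synaptic and neuronal adhesion, 25% for axon guidance and 27.5% for ion channels. For matrix, protease and integrin genes it was 33.3%, and for regulators of development 18.4%. Genes of the matrix, proteases and integrins had 18 peaks beyond (1.30%, 0.825 to 2.05) and 72 within (1.07%, 0.848 to 1.34). The metalloprotease gene ADAMTS9 had 5 at 131 to 195 kb with pileups of 9 to 11, ADAMTS18 had 3 at 112 to 266 kb, the glypican gene GPC5, whose peaks carried several microRNA symbols as well, had 4 and the thrombospondin gene THBS2 had 2. Ensembl identifiers without a gene name were nearest to 353 peaks beyond (25.5%) and 1495 within (22.1%), and RNA families and microRNAs to 123 beyond (8.89%) and 492 within (7.29%).

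A list of 59 well-known hypoxia targets accounted for 6 peaks beyond 100 kb (0.434%, 0.199 to 0.943), with 44 within 100 kb (0.652%, 0.486 to 0.874). Whether this is few or many for a list of this size was not tested. The intervals overlap, and 6 peaks are too few to read a difference from. CITED2, a HIF-inducible gene whose product competes with HIF1α for the coactivators CBP and p300, was nearest to 4 of the 6. They lay 183, 279, 392 and 410 kb from its TSS with pileups of 11, 8, 9 and 8. The nearest of the 4, at chr3:53876161-53876284, was enriched 5.22-fold with a −log10 q of 3.88. All were in a 920 kb stretch between NMBR and CITED2 that held 8 peaks beyond 100 kb. Of these 8, 4 reached a −log10 q of 3, set beside 26.5% of all autosomal peaks. Among the peaks nearest to CITED2 only that at 183 kb did, and these counts are too small to read a difference from. PFKP, a phosphofructokinase of glycolysis, had 1 peak at 210 kb with a pileup of 9, and INSIG2, a regulator of sterol synthesis, had 1 at 107 kb with a pileup of 8.

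A list of 37 lens genes was nearest to 8 peaks beyond 100 kb (0.578%, 0.293 to 1.14) and 26 within (0.385%, 0.263 to 0.564). MAF, a transcription factor required for lens fiber differentiation in mouse, had 3 on chromosome 11 at 153, 176 and 258 kb, with pileups of 8, 7 and 7. PROX1, a homeodomain factor of lens fiber elongation, had 2 on chromosome 3 at 191 and 195 kb with pileups of 9 and 10 and a gap of 4218 bp between them. GJA1, the connexin of lens epithelium, had 1 at 156 kb with a pileup of 9. The crystallin gene CRYBB1 had 1 at 151 kb with a pileup of 9. None of the 8 reached a −log10 q of 3, set beside 26.5% of all autosomal peaks, and none had high IgG background, set beside 12.4% of all peaks beyond 100 kb, counts too small to read a difference from.

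Single peaks stood far above the rest. A fold enrichment of 10 was reached by 5 peaks beyond 100 kb and by 27 within, or 0.393% of all autosomal peaks. The strongest by both −log10 q and fold enrichment was at chr3:74905205-74905357, 102 kb from an RF00026 symbol, where the pileup was 262, the background 5.66 fragments, the enrichment 39.5-fold and the −log10 q 322. Near PCDH9, a protocadherin gene, a peak at chr1:160631863-160631981 was 188 kb from the TSS and held 39 fragments over the lowest background, or a 17.4-fold enrichment. The peak at chr5:28665620-28666041, 112 kb from ZFP36L1, which encodes a protein that promotes mRNA decay, held 44 fragments, a 16.8-fold enrichment. LSAMP, a neuronal adhesion gene, had a peak at chr1:82154459-82154645 with 23 fragments and a 10.4-fold enrichment, and 112 bp away lay another with 21 fragments and an 8.85-fold enrichment. A peak at chr1:11058490-11058665 near ENSGALG00000052917 likewise held 23 fragments, a 10.4-fold enrichment. The peaks near PCDH9, ZFP36L1, LSAMP and ENSGALG00000052917 were without high IgG background.

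The peak at chr3:74905205-74905357 had high IgG background, as did the other peaks with the highest −log10 q. At chr13:15591755-15592228, 105 kb from the cation channel gene TRPC7, the pileup was 294, the background 33.6 fragments and the fold enrichment 8.53. At chr1:10683706-10683956, 117 kb from HGF, which encodes hepatocyte growth factor, the pileup was 171 over 20.2 fragments and the fold enrichment 8.13. A peak 195 kb from RF00026 on chromosome 1 held 168 fragments at a fold enrichment of 5.38. The highest pileup, 983, was at chr33:3529838-3531801 near GR42L6, where the background was 581 fragments and the fold enrichment 1.69. Next by pileup were 3 peaks near ENSGALG00000050708, with 764, 596 and 373 fragments, and 1 near ENSGALG00000048324 with 368, all with fold enrichments of 1.57 to 1.96. The 3 longest peaks, of 2811, 2779 and 2464 bp, were all near ENSGALG00000055127 on chromosome 31, and the next were that of GR42L6 with 1964 bp and one near ENSGALG00000047446 with 1860 bp. All 5 had high IgG background.

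Spacing was then compared. The gap to the nearest listed peak had a median of 39580 bp for peaks beyond 100 kb (95% confidence interval 34962 to 43734) and 35998 bp for autosomal peaks within 100 kb (34420 to 37267). A neighbour within 10 kb was found for 319 peaks beyond (23.1%, 20.9 to 25.4) and 1426 within (21.1%, 20.2 to 22.1). The difference did not pass the threshold (odds ratio 1.12, 95% confidence interval 0.975 to 1.29, adjusted p = 0.284, Fisher's exact test), but it did within chromosomes (Mantel-Haenszel estimate 1.19, adjusted p = 0.0483) and after merging peaks within 1 kb (odds ratio 1.22, adjusted p = 0.0223, Fisher's exact test). It also did on chromosomes 11 and above alone (39.0% beyond against 29.1% within, odds ratio 1.56, adjusted p = 0.00622, Fisher's exact test), where without chromosome 27 it was 1.02 (adjusted p = 0.932). Over all autosomal peaks the odds ratio was 1.01 without chromosome 27 (adjusted p = 0.967, Fisher's exact test). Without high IgG background it was 0.965 (adjusted p = 0.710, Fisher's exact test). With 1 peak per stretch the odds ratio turned direction without passing the threshold, as given in the last section. Peaks that neighbour each other were each counted as an independent observation in these tests, and the p-values do not allow for that. Neighbours closer than 1 kb were found for 67 peaks beyond 100 kb (4.84%) and for 394 within (5.84%), which was not tested. High IgG background was present at 50 of the 67 and at 180 of the 394. The 2 closest pairs, 107 and 111 bp apart, were near ENSGALG00000055127 and ENSGALG00000047446 and had high IgG background. The next, 112 bp apart, was near SEMA3A on chromosome 1, with pileups of 12 and 7 over a low background, and tied with the LSAMP pair.

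Peaks beyond 100 kb were found on 24 of 32 chromosomes. Chromosomes 1 to 5 held 976 of them (70.6%), which was 19.8% of their own peaks (18.8 to 21.0), chromosomes 6 to 10 held 171 (14.0% of their peaks, 12.1 to 16.0) and the microchromosomes, 11 and above, held 236 (11.8%, 10.5 to 13.3). There were 1.60, 1.16 and 1.18 of them per Mb in these classes, each chromosome being measured up to its last listed peak. Chromosomes 1 and 4 had 382 and 176, or 24.1% and 23.2% of their peaks. Chromosome 27 stood out with 51 of 118 peaks (43.2%, 34.6 to 52.2), 50 of which had high IgG background, and chromosome 14 had 35 of 140 (25.0%, 18.6 to 32.8), 15 with high IgG background. On chromosome 11 the share was 21.2% (15.9 to 27.8) with only 1 such peak. Chromosomes 16, 21, 23, 25, 26, 28, 30 and 32 had none beyond 100 kb, and the upper limits of their intervals ranged from 5.20% for chromosome 21 to 29.9% for chromosome 32, which had only 9 peaks. On microchromosomes 38.6% of the peaks beyond 100 kb had high IgG background (32.6 to 44.9), against 14.2% of those within 100 kb (odds ratio 3.78, adjusted p = 1.28e-16, Fisher's exact test). Without chromosome 27 these shares were 22.2% and 13.6% (odds ratio 1.81, adjusted p = 0.0140, Fisher's exact test). Outside chromosome 27, chromosomes 14 and 33 held 15 and 14 of the peaks beyond 100 kb with high IgG background. Of these, 15 and 13 were next to PDXDC1 and ENSGALG00000050708. Peaks that lie together counted as independent observations here, and the class was not tested without chromosomes 14 and 33.

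**Figure D5:**
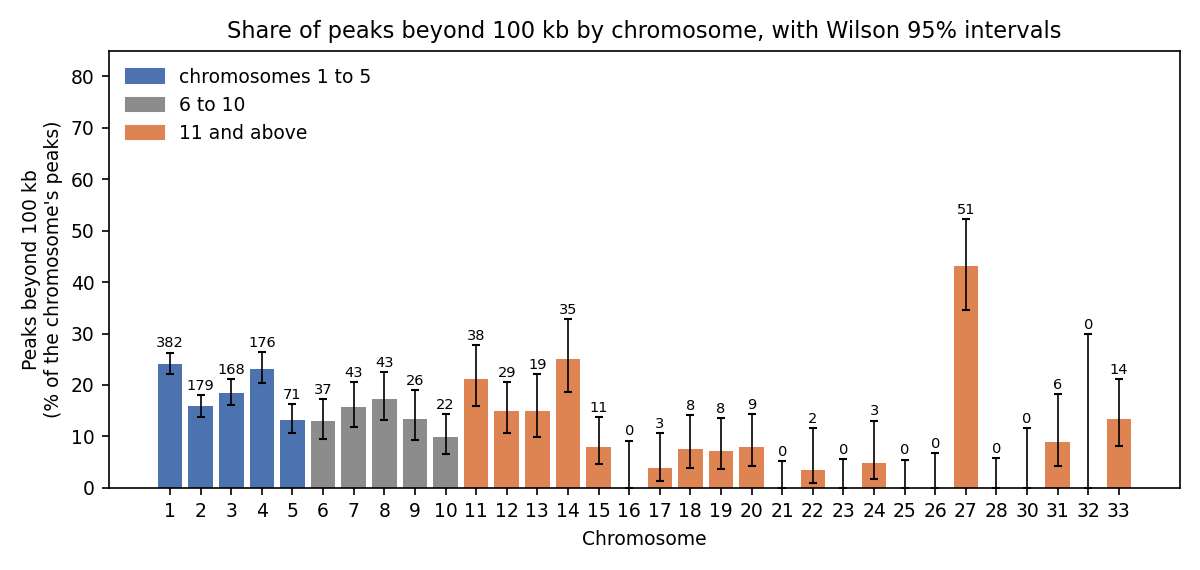
Share of each chromosome's peaks that lie beyond 100 kb, in percent (bars), with Wilson 95% confidence intervals (lines) and the number of such peaks above each bar. Bars are coloured by chromosome class, and chromosome 27 is highest at 43.2% with 51 peaks.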

How the data were processed

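Reads were trimmed by the authors (Trimmomatic) and aligned to galGal6 (Bowtie2), short fragments were kept (SAMtools), mitochondrial reads and those of low complexity were discarded, and MACS2 called narrow peaks in the pooled HIF1α libraries over the pooled IgG libraries. Tool versions are not given in the sources used here. The authors deposited the pileup as a signal in fragments, the fold enrichment as a ratio, and −log10 p and −log10 q values of the MACS2 test, with positions in bp counted from 1 (the length matched in all 8375 rows). The highest q was 0.0496. Depth per library is not known from the list, and intervals cover counting error only.

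The background was (pileup + 1) / fold enrichment − 1. TSS positions were taken as the peak edge minus or plus the distance. Shares were compared by two-sided Fisher's exact tests with Benjamini-Hochberg adjustment over 5 shares (threshold 0.05), with SciPy 1.17.1 in Python 3.11.15, and tested on simulated data. A planned share in open chromatin was not run, since no such column was used here.

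Named were the 15 symbols with the most peaks and ties, the 5 highest peaks by −log10 q, fold enrichment, pileup, length and distance, the 2 on either side of the limit, the 3 closest pairs, all peaks of the hypoxia and lens lists and up to 4 genes per other family. Some genes that this rule names are not reported here. Stretches, BEND5 and FBRSL1 were chosen after their values were seen. Members and lists were chosen with earlier results of these data known. Of 511 gene names nearest to the peaks, 97.3% matched the RefSeq table of GRCg7b, used for names and neighbours only. Alternatives were stricter thresholds, merging within 1 kb, a distance of 200 kb, comparison with peaks at 10 to 100 kb alone and analysis within chromosomes.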

Additional observations from a re-analysis of the deposited data

How the results depend on the processing

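No paired analysis was possible because peaks were called after pooling and no column belongs to a replicate, and for the same reason no library could be left out. Leaving out chromosomes, also within a class, single chromosome classes, 1 peak per stretch and the within-chromosome fit without high IgG background were chosen after seeing the data. The higher share of high IgG background beyond 100 kb kept its direction under all alternatives run. It did not pass the threshold with a fold enrichment of at least 3 (odds ratio 1.75) on chromosomes 1 to 5 alone (1.37) and on chromosomes 6 to 10 without chromosome 8 (2.76) or without chromosome 10 (2.38), whereas 1 peak per stretch gave 1.78 (adjusted p = 0.0132, Fisher's exact test) and leaving out single chromosomes 1.41 (without chromosome 27) to 2.07.

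The other odds ratios turned direction without passing the threshold in the cases that follow, and the cause was not tested. For a −log10 q of at least 3 they were 0.999 at a fold enrichment of at least 3, 0.959 without high IgG background (0.985 within chromosomes), 0.958 with gene names alone, 0.974 beyond 200 kb, 0.964 on chromosomes 11 and above (0.808 there without chromosome 27), 0.959 without chromosome 1 and 0.992 without chromosome 27. For a pileup of 7 to 9 they were 1.12 at a −log10 q of at least 2, 1.08 at a fold enrichment of at least 3, 1.12 without high IgG background (1.07 within chromosomes), 1.01 on chromosomes 1 to 5, 1.09 on chromosomes 11 and above without chromosome 27, 1.03 with 1 peak per stretch and 1.03 without chromosome 27. For a length of at least 200 bp they were 0.984 at a −log10 q of at least 2, 0.917 at a fold enrichment of at least 3, 0.834 without high IgG background (0.846 within chromosomes), 0.998 on chromosomes 1 to 5, 0.989 without chromosome 1 and 0.994 without chromosome 27. For a neighbour within 10 kb they were 0.947 at a fold enrichment of at least 3, 0.965 without high IgG background, 0.979 beyond 200 kb and 0.785 with 1 peak per stretch.

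Passing the threshold on chromosomes 11 and above alone were the shares with a pileup of 7 to 9 (odds ratio 0.692), a length of at least 200 bp (1.50) and a neighbour within 10 kb (1.56). Without chromosome 27 none of these 3 passed there. The last also passed after merging within 1 kb (1.22), within chromosomes (1.19) and without chromosome 4 (1.20). On chromosomes 6 to 10 alone the odds ratios for a length of at least 200 bp (1.41) and a neighbour within 10 kb (1.58) did not pass. The share of peaks beyond 100 kb was 16.2% without high IgG background and 16.0% with gene names alone. Symbols with 3 or more peaks numbered 56 among peaks that reached a −log10 q of 2.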
